A study of Mus musculus with 24 samples.

Results

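Met and 9 other receptor tyrosine kinase genes were followed through all 8 treatment groups to ask whether the lower *Met* mRNA seen under some FAK-targeting compounds was shared by other growth factor receptors. The 10 genes, *Met*, *Egfr*, *Erbb2*, *Axl*, *Pdgfra*, *Pdgfrb*, *Igf1r*, *Fgfr1*, *Ddr1* and *Ddr2*, were chosen by symbol from a table of 49315 genes. MS03 cells, a single immortalized Schwann cell line made Nf2-/- by infecting Nf2 flox/flox cells with Cre, received for 24 hours either DMSO, a FAK kinase inhibitor at 1 μM (defactinib, VS-4718, GSK2256098 or IN10018), PROTAC FAK degrader 1 at 1 μM, or the PROTACs GSK215 or BSJ-04-0146 at 0.1 μM. Each group had 3 libraries labelled as biological replicates, every group including DMSO carried the same genotype, and all cells were grown in DMEM with fetal bovine serum. The labels do not say that replicates were separate cultures, so *P* values measure the spread between these libraries.

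Receptor tyrosine kinases span the plasma membrane, bind a ligand outside the cell and, once paired, phosphorylate tyrosines on their own tails, which recruit adaptors that feed the RAS-ERK and PI3K-AKT pathways. FAK, encoded by *Ptk2*, is a cytoplasmic tyrosine kinase at integrin adhesions that also receives signals from such receptors. In Schwann cells, neuregulin acts through the ERBB2-ERBB3 pair and hepatocyte growth factor (HGF) through MET, the latter being active after nerve injury. A PROTAC joins a ligand for its target to an E3 ligase ligand so that the target protein is degraded, whereas a kinase inhibitor blocks the enzyme and leaves the protein in place.

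Total counts per library ranged from 14472462 to 27449516, the shallowest being a GSK215 library. Every PROTAC library (at most 21588406) was shallower than every DMSO or kinase inhibitor library (at least 21654444). The TMM scaling factors of library size split the same way, at 1.009 or more against 0.997 or less. Depth thus goes with compound class, and its part in the comparisons was not tested. All 24 libraries were nearest to a library of their own group. *Ptk2* mRNA lay between 77.4 and 101.7 CPM, counts scaled to the normalized size of the library, in all 24. Against DMSO its log2 fold change was -0.29 with GSK215 and -0.26 with BSJ-04-0146 (edgeR, adjusted *P* = 6.47e-09 and 9.62e-08). It was also lower with VS-4718 (-0.18), defactinib (-0.14) and GSK2256098 (-0.13, largest adjusted *P* = 0.010). With IN10018 (-0.07) and PROTAC FAK degrader 1 (0.03) *Ptk2* mRNA did not pass. It is not a check of the PROTACs, which act on the protein, and counts per gene cannot check the deleted part of *Nf2*. All 10 Schwann markers used reached 10 counts in at least 1 library, but *S100b* and *Egr2* stayed at 18 counts or fewer. Of the fibroblast markers, *Col1a1* and *Col1a2* were abundant while *Dcn*, *Lum* and *Thy1* had at most 3 counts. Of the 6 macrophage markers, *Ptprc*, *Adgre1* and *Itgam* had at most 1 count in any library and *Lyz2* at most 5, while *Csf1r* had 3 to 20 counts and *Cd68*, a lysosomal protein gene, 65 to 239. The normalization of library sizes sets where no change lies. With library totals in place of TMM factors, the median gene moved from 0.02 to 0.14 (log2) for GSK215 and from 0.02 to 0.13 for BSJ-04-0146. The calls over all genes then split into 2867 lower and 6190 higher in place of 4379 and 4407 for GSK215, and into 2966 and 6018 in place of 4320 and 4451 for BSJ-04-0146. For VS-4718 they split into 2394 and 4015 in place of 3030 and 3273, and for the 3 PROTACs against the 4 kinase inhibitors into 3808 and 7094 in place of 5241 and 5456.

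Stretches before the RefSeq starts are shown for *Met*, *Axl* and *Erbb2*, the 3 of the 9 genes tested that fell furthest with PROTAC FAK degrader 1. That of *Pdgfra* is shown because *Pdgfra* fell with the same compound and rose with the other PROTACs. Sequences are RefSeq promoters of GRCm38.p6, running 5′ to 3′ on the strand of the gene. RefSeq windows were found for 8 of the 10 genes, and none for *Fgfr1* or *Pdgfrb*. Capitals mark TGANTCA (AP-1), GGAATG (TEAD) or GGGCGG (SP1) on either strand, motifs chosen after the values were known.
Met, chr6:17463707-17463799, plus strand: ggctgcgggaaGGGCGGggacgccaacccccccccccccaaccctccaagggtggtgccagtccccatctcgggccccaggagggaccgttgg
Met, chr6:17463892-17463921, plus strand: tgttgcccggcTGAGTCAcgggccgggcag
Axl, chr7:25788734-25788983, minus strand: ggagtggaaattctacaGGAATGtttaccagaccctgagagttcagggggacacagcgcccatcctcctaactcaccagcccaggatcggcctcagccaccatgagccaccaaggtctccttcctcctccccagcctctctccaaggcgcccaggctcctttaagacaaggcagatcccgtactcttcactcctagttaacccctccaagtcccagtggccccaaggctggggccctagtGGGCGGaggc
Erbb2, chr11:98412234-98412469, plus strand: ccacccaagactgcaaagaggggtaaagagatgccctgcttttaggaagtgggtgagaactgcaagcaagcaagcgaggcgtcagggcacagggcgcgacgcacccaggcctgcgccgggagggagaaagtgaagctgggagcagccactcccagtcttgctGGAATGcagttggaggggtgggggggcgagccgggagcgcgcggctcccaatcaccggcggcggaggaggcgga
Pdgfra, chr5:75152001-75152250, plus strand: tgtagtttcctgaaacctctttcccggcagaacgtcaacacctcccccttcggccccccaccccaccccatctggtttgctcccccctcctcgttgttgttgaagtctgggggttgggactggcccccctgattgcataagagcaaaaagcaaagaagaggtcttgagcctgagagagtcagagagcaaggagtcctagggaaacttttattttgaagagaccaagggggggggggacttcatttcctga

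The *Met* window held the AP-1 letters 54 bases before the RefSeq start and 3 matches of SP1, of which the farthest is printed. The second *Met* stretch, with the AP-1 letters, lies inside *Met* in the GENCODE annotation, whose start is at 17463800. TEAD letters stood 233 bases before the start of *Axl* and 88 bases before that of *Erbb2*. The *Pdgfra* window held none of the motifs searched. Among 32851 RefSeq windows of 300 bases, 7.81% held the AP-1 letters, 14.7% the TEAD letters and 35.7% the SP1 letters. The AP-1 letters also stood in 1 of the 4 *Ddr1* windows, 151 bases before its start, and the SP1 letters also in the windows of *Egfr* and *Igf1r* and in 3 of the 4 of *Ddr1*. The NF-kB motif, in 8.46% of windows, was found only at *Ddr1*, in 1 of its 4 windows, among the genes matched. Each match is a description of letters and not of binding, and the 3 genes shared no match beyond the TEAD letters in *Axl* and *Erbb2* and the SP1 letters in *Met* and *Axl*.

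In DMSO the genes covered a wide range of levels per length, given as TPM, counts per exon length of the gene and scaled to the library. *Axl*, a receptor of the TAM family that binds GAS6, stood at 741 ± 12.3 TPM (SD, n = 3) and made up 68.2% of the summed TPM of the 10 genes. The collagen receptor *Ddr2* followed at 133 ± 5.05 TPM and *Met*, the receptor of HGF, at 92.3 ± 1.23 TPM. *Erbb2* at 36.5, *Ddr1* at 31.6 and *Igf1r* at 25.4 TPM formed a middle group, and *Pdgfrb* at 12.7, *Fgfr1* at 10.2 and *Pdgfra* at 3.69 TPM a lower one. *Egfr*, with 2 to 7 counts per library, stood at 0.046 ± 0.021 TPM. With the longest transcript as the length, *Erbb2* and *Ddr1* changed places, as did *Pdgfrb* and *Fgfr1*, so those orders are not settled. The summed TPM of the 10 genes was 1087 ± 21.3 with DMSO and 727 ± 17.8 with PROTAC FAK degrader 1. The share of *Axl* in that sum was then 55.8%, and that of *Ddr2* moved from 12.3% to 23.1%.

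**Figure D1:**
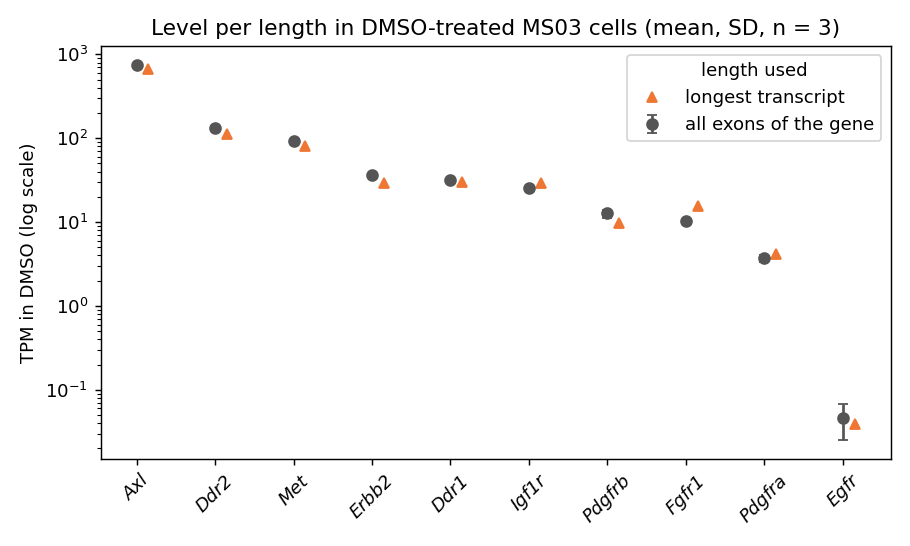
Level of each receptor gene in DMSO-treated MS03 cells, in TPM on a log axis, with the genes along the horizontal axis in falling order. Circles and bars are the mean and SD of 3 libraries with the length of all exons, and triangles the mean with the longest transcript. *Axl* stands at 741 TPM and *Egfr* at 0.046 TPM.

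*Met* was highest with DMSO and lowest with PROTAC FAK degrader 1. Its libraries read 239, 232 and 241 CPM with DMSO and 92.7, 90.4 and 93.3 CPM with PROTAC FAK degrader 1. They read 198, 182 and 182 CPM with GSK215 and 159, 149 and 153 CPM with BSJ-04-0146. Among the kinase inhibitors the libraries read 232, 224 and 229 CPM with defactinib, 194, 203 and 201 CPM with VS-4718, 213, 225 and 224 CPM with GSK2256098 and 199.5, 207 and 202 CPM with IN10018. The libraries of all 7 compounds lay below every DMSO library, by less than the rounding for the highest with defactinib. For 3 libraries against 3, an exact permutation test gives such separation *P* = 0.1 at best. Separation from DMSO was therefore not taken as a call, here or for the other receptors. The share of all genes that separate so from DMSO is not given here. In the order of group means, defactinib and GSK2256098, IN10018 and VS-4718, and VS-4718 and GSK215 were neighbours whose libraries overlapped. The log2 fold change against DMSO was -1.36 ± 0.035 (SE) for PROTAC FAK degrader 1 (edgeR quasi-likelihood test, adjusted *P* = 1.36e-29), -0.62 ± 0.034 for BSJ-04-0146 (adjusted *P* = 8.2e-19) and -0.34 ± 0.033 for GSK215 (adjusted *P* = 1.7e-11). VS-4718 gave -0.25 ± 0.032 (adjusted *P* = 4.22e-08) and IN10018 gave -0.23 ± 0.033 (adjusted *P* = 5.44e-06). The change with GSK2256098 was -0.10 ± 0.032 (adjusted *P* = 0.028) and did not pass with library totals (adjusted *P* = 0.063), without DMSO replicate 1 (0.076) or 3 (0.095), or without GSK2256098 replicate 1 (0.154). With defactinib it was -0.05 ± 0.032 and did not pass (adjusted *P* = 0.25).

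*Axl* changed most like *Met* among the receptors. With DMSO its libraries read 1241, 1249 and 1255 CPM, and with PROTAC FAK degrader 1 they read 659, 636 and 644 CPM. The BSJ-04-0146 libraries lay between, at 965, 977 and 992 CPM. The log2 fold change was -0.95 ± 0.029 for PROTAC FAK degrader 1 (edgeR, adjusted *P* = 1.94e-27) and -0.35 ± 0.028 for BSJ-04-0146 (adjusted *P* = 9.95e-14). *Axl* also fell by 0.14 with IN10018 and by 0.12 with VS-4718 (SE 0.028 each, adjusted *P* = 0.00078 and 0.00059). With GSK215 its libraries read 1166, 1177 and 1173 CPM and the log2 fold change was -0.09 ± 0.028 (adjusted *P* = 0.006), which with library totals became 0.03 (adjusted *P* = 0.324). Defactinib moved *Axl* the other way, to 1336, 1330.2 and 1335 CPM. That rise of 0.10 ± 0.028 (adjusted *P* = 0.012) did not pass without the low count filter (adjusted *P* = 0.062) or without DMSO replicate 1 (adjusted *P* = 0.058).

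Of the ERBB receptors, *Erbb2*, which has no known ligand of its own and signals in pairs, fell with 1 of the 7 compounds, PROTAC FAK degrader 1 (edgeR). Its libraries read 64.3, 64.1 and 62.6 CPM with DMSO and 39.5, 41.8 and 43.6 CPM with PROTAC FAK degrader 1, a log2 fold change of -0.61 ± 0.05 (adjusted *P* = 4.72e-14). With GSK215 they read 76.0, 74.1 and 75.4 CPM and with VS-4718 75.4, 76.6 and 65.9 CPM. Both rose against DMSO, by 0.24 ± 0.046 (adjusted *P* = 3.03e-05) and 0.19 ± 0.045 (adjusted *P* = 0.0008). The rise with defactinib, 0.15 ± 0.045 (adjusted *P* = 0.011), did not pass without DMSO replicate 3 (adjusted *P* = 0.056) or defactinib replicate 3 (adjusted *P* = 0.107). GSK2256098, IN10018 and BSJ-04-0146 gave log2 fold changes of 0.09, -0.07 and 0.06 that did not pass, the last passing with library totals (0.17). *Egfr* did not pass the low count filter, so no fold change is given. In a fit without that filter none of its 7 changes passed (smallest adjusted *P* = 0.844), with standard errors of 0.64 to 0.69 on the log2 scale. Exons of *Erbb2* (9 bases), *Pdgfra* (652), *Ddr1* (216), *Fgfr1* (164) and *Ddr2* (90) overlap other annotated genes, all on the other strand but for a microRNA gene within *Pdgfra*, and the strand setting of the counts is not given in the sources used here.

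*Igf1r*, the receptor of insulin-like growth factors, moved little. Its libraries read 144, 139 and 145 CPM with DMSO and 131, 133 and 135 CPM with PROTAC FAK degrader 1. The latter lay below DMSO, and the log2 fold change of -0.10 ± 0.05 did not pass (edgeR, adjusted *P* = 0.067), though it passed without the low count filter and in a fit of those 6 libraries alone. *Igf1r* rose by 0.21 ± 0.048 with defactinib (adjusted *P* = 0.0015), 0.20 ± 0.049 with GSK215 (adjusted *P* = 0.00061) and 0.18 ± 0.048 with VS-4718 (adjusted *P* = 0.0024). With BSJ-04-0146 the libraries read 118, 118 and 140.4 CPM and overlapped those of DMSO. Its log2 fold change of -0.19 ± 0.05 (adjusted *P* = 0.0013) was -0.08 with library totals and then did not pass (adjusted *P* = 0.175).

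The PDGF receptors rose most with the PROTACs given at 0.1 μM. *Pdgfrb* read 21.4, 25.7 and 22.5 CPM with DMSO, 66.4, 67.1 and 66.7 CPM with GSK215 and 46.3, 40.9 and 49.7 CPM with BSJ-04-0146. These groups did not overlap, and the log2 fold changes were 1.52 ± 0.058 (edgeR, adjusted *P* = 1.5e-23) and 0.97 ± 0.061 (adjusted *P* = 9.71e-17). *Pdgfrb* also rose by 0.67 ± 0.06 with VS-4718, 0.54 ± 0.061 with defactinib, 0.39 ± 0.064 with PROTAC FAK degrader 1 and 0.29 ± 0.063 with GSK2256098 (largest adjusted *P* = 0.0012). With IN10018 it read 23.3, 22.4 and 23.4 CPM, inside the range of DMSO. *Pdgfra* was lower throughout, at 12.0, 13.4 and 11.7 CPM with DMSO. It read 24.0, 27.9 and 27.1 CPM with GSK215 and 25.8, 24.6 and 27.8 CPM with BSJ-04-0146. Those libraries were above all others, with log2 fold changes of 1.09 ± 0.073 (adjusted *P* = 6.09e-16) and 1.07 ± 0.074 (adjusted *P* = 1.23e-15). *Pdgfra* with PROTAC FAK degrader 1 read 8.55, 8.71 and 9.03 CPM, below every other library. It fell by 0.50 ± 0.087 on the log2 scale (adjusted *P* = 2.97e-06), so the PDGF receptors moved in opposite directions with that compound. None of the 4 kinase inhibitors changed *Pdgfra* past the threshold (log2 fold changes of 0.08 to 0.19, smallest adjusted *P* = 0.07), although defactinib passed without DMSO replicate 2 (0.26, adjusted *P* = 0.036).

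*Fgfr1*, a receptor of fibroblast growth factors, followed the same pattern with GSK215 and BSJ-04-0146. Its libraries read 33.2, 34.1 and 33.8 CPM with DMSO, 90.9, 85.8 and 91.6 CPM with GSK215 and 85.5, 86.4 and 84.4 CPM with BSJ-04-0146. The 2 PROTAC groups overlapped each other and were above all other libraries, with log2 fold changes of 1.41 ± 0.041 (edgeR, adjusted *P* = 2.86e-27) and 1.34 ± 0.041 (adjusted *P* = 1.46e-26). VS-4718 and defactinib raised *Fgfr1* by 0.50 ± 0.043 and 0.49 ± 0.043, and GSK2256098 by 0.24 ± 0.044 (largest adjusted *P* = 0.00022). With PROTAC FAK degrader 1 it read 31.3, 28.6 and 30.8 CPM. That change of -0.16 ± 0.047 (adjusted *P* = 0.0036) was -0.07 with library totals and then did not pass (adjusted *P* = 0.152).

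The discoidin domain receptors *Ddr1* and *Ddr2*, which bind collagen rather than a soluble growth factor, moved apart. *Ddr1* read 49.4, 51.5 and 50.3 CPM with DMSO, 100.1, 102 and 98.2 CPM with GSK215, 82.6, 89.7 and 93.8 CPM with BSJ-04-0146 and 83.9, 79.2 and 76.9 CPM with VS-4718. All of these lay above DMSO, and the log2 fold changes were 0.99 ± 0.047, 0.81 ± 0.048 and 0.67 ± 0.047 (edgeR, largest adjusted *P* = 1.04e-14). Smaller rises of 0.35 ± 0.048 with GSK2256098 and 0.31 ± 0.048 with defactinib also passed (adjusted *P* = 1.6e-06 and 5.56e-06). With IN10018 and PROTAC FAK degrader 1 the values of 0.07 and 0.08 did not pass, the latter passing with library totals (0.16). *Ddr2* read 416, 419.7 and 406 CPM with DMSO, 322, 313 and 309 CPM with GSK215 and 251, 248 and 262 CPM with BSJ-04-0146. It fell by 0.39 ± 0.03 and 0.71 ± 0.031 on the log2 scale (adjusted *P* = 3.22e-14 and 9.55e-22) and was the lowest of the 9 genes with both compounds. By contrast, *Ddr2* with PROTAC FAK degrader 1 read 487, 496 and 493 CPM, above every other library, and rose by 0.25 ± 0.03 (adjusted *P* = 1.52e-09). The remaining changes of *Ddr2* were 0.16 with defactinib, -0.14 with VS-4718 and -0.12 with IN10018, which passed (largest adjusted *P* = 0.0044), and -0.05 with GSK2256098, which did not (adjusted *P* = 0.28).

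**Figure D2:**
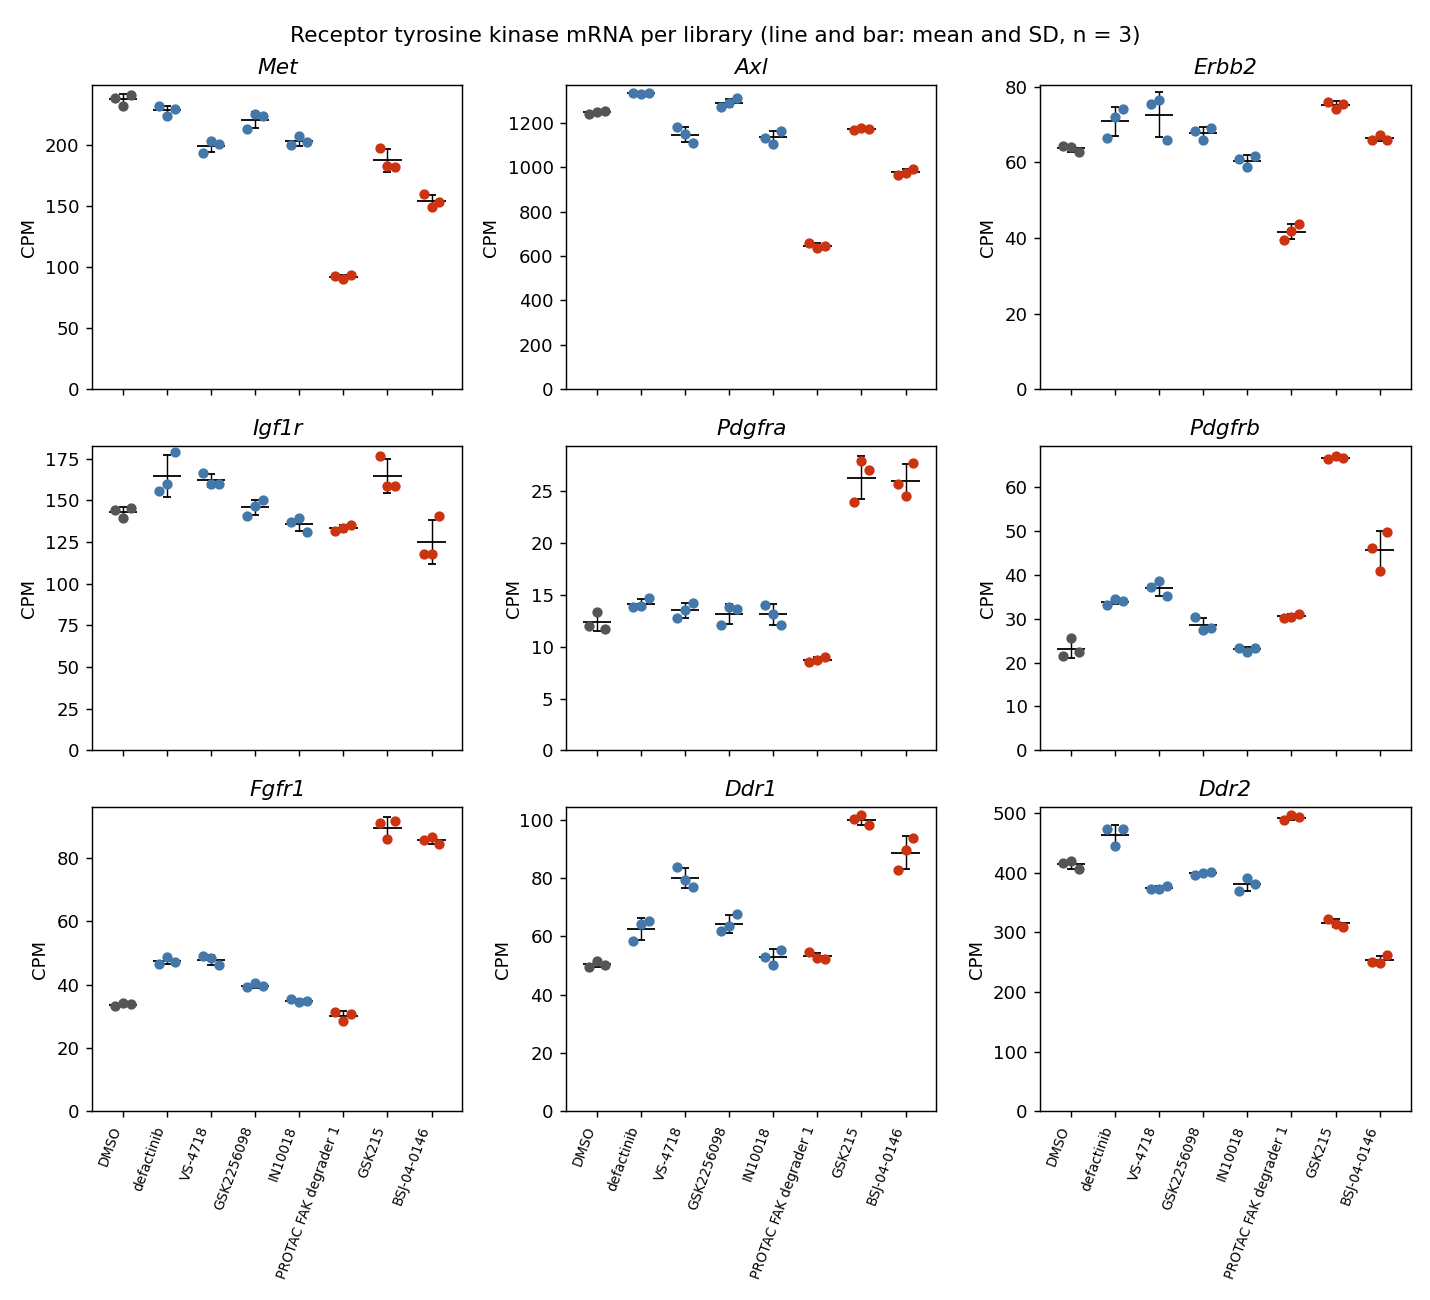
CPM of the 9 receptor genes tested, a panel each on axes from 0, with the 8 groups along the horizontal axis (grey DMSO, blue kinase inhibitors, red PROTACs). Points are libraries, and the lines and bars are the mean and SD of 3. *Met* and *Axl* are lowest with PROTAC FAK degrader 1, while *Pdgfra*, *Pdgfrb*, *Fgfr1* and *Ddr1* are highest with GSK215.

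Counted by compound, the receptors did not fall together. With PROTAC FAK degrader 1, 5 of the 9 tested were lower (*Met*, *Axl*, *Erbb2*, *Pdgfra* and *Fgfr1*) and 2 higher (*Pdgfrb* and *Ddr2*), beside 32.7% lower and 34.1% higher among the 16070 genes tested. With GSK215, 3 were lower (*Met*, *Axl* and *Ddr2*) and 6 higher, beside 27.2% and 27.4%. With BSJ-04-0146, 4 were lower (*Met*, *Axl*, *Ddr2* and *Igf1r*) and 4 higher, beside 26.9% and 27.7%. With library totals the lower calls of the 3 PROTACs were 4, 2 and 3 of 9, beside 27.7%, 17.8% and 18.5% over all genes. The higher calls then gained *Ddr1* with PROTAC FAK degrader 1 and *Erbb2* with BSJ-04-0146. Over all genes 39.1%, 38.5% and 37.4% were higher with library totals.
For the kinase inhibitors the counts leaned higher, except with IN10018. Defactinib gave 0 lower and 7 higher, beside 11.0% and 11.4% over all genes. The edgeR test at an unadjusted *P* under 0.05 and DESeq2 also gave 0 lower. VS-4718 gave 3 lower (*Met*, *Axl* and *Ddr2*) and 5 higher, beside 18.9% and 20.4%. GSK2256098 gave 1 lower, *Met*, and 3 higher, beside 6.09% and 6.36%. IN10018 gave 3 lower, *Met*, *Axl* and *Ddr2*, and 0 higher, beside 6.85% and 6.44% (0 higher also with edgeR at an unadjusted *P* under 0.05 and with DESeq2).

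By gene, *Met* was lower with 6 of 7 compounds and higher with none, and 2.17% of all genes tested were lower with 6 or more. It was lower with 5, GSK2256098 being lost, with library totals or without DMSO replicate 1 or 3 or GSK2256098 replicate 1. *Axl* was lower with 5 (4 with library totals) and higher with 1, and *Ddr2* lower with 4 and higher with 2, where 6.48% of genes were lower with 5 or more and 13.7% with 4 or more. *Erbb2*, *Pdgfra*, *Igf1r* and *Fgfr1* were each lower with 1 compound and higher with 2 to 5, the lower call of *Igf1r* and of *Fgfr1* being lost with library totals, and *Pdgfrb* and *Ddr1* were lower with none. All 7 comparisons share the same 3 DMSO libraries. *Met* had the lowest log2 fold change of the 9 genes with all 4 kinase inhibitors and with PROTAC FAK degrader 1.

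**Figure D3:**
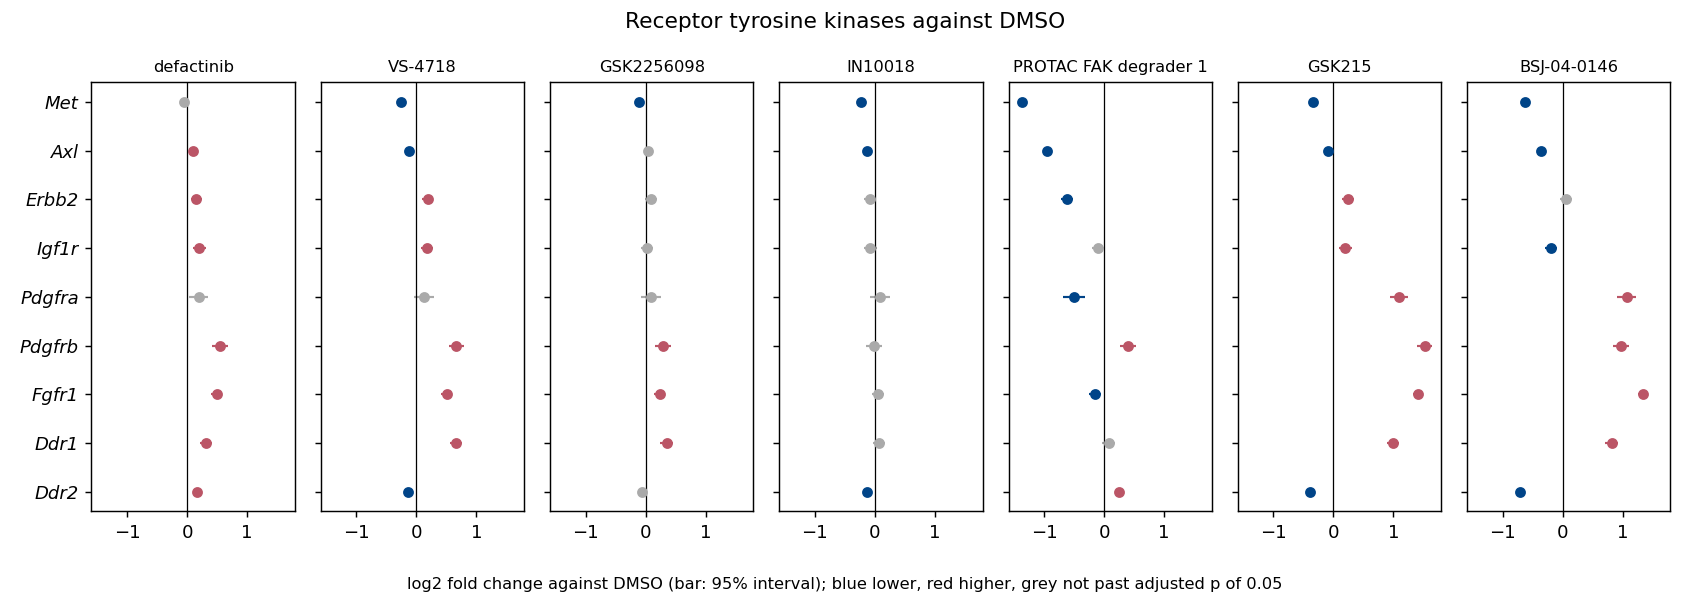
Log2 fold change of each receptor gene against DMSO, 1 panel per compound, with 95% intervals from 16 residual degrees of freedom. Blue points were lower and red points higher at an adjusted *P* under 0.05, and grey points did not pass. *Met* sits left of the other genes for 5 of the 7 compounds and *Ddr2* for GSK215 and BSJ-04-0146.

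The ratio of *Met* to another receptor within the same library does not depend on the library's size factor. This measure was chosen after the values were known. With PROTAC FAK degrader 1 the log2 ratio of *Met* to all 8 other tested receptors was below that of every DMSO library, as it was to 89.7% of the 15672 genes with a count in every library. The same held for 8 of 8 receptors with defactinib (24.3% of genes) and VS-4718 (57.1%), for 7 of 8 with GSK215 (61.2%) and BSJ-04-0146 (80.3%), and for 6 of 8 with GSK2256098 (35.6%) and IN10018 (60.3%). No receptor had the ratio above DMSO without overlap. Against *Axl*, the nearest in pattern, the log2 ratio was -2.40 ± 0.027 (SD, n = 3) with DMSO and -2.81 ± 0.021 with PROTAC FAK degrader 1, with no overlap (exact permutation test, two-sided, *P* = 0.1, the smallest that 3 against 3 libraries allow). Against *Ddr2* the ratio overlapped DMSO with GSK215 and BSJ-04-0146, where both genes fell.

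The 3 PROTACs were then compared with the 4 kinase inhibitors, each compound given equal weight and with doses not matched. *Met* was lower by 0.62 ± 0.019 (edgeR, adjusted *P* = 2.58e-27), *Axl* by 0.44 ± 0.015, *Ddr2* by 0.24 ± 0.016, *Erbb2* by 0.19 ± 0.026 and *Igf1r* by 0.12 ± 0.027. *Pdgfrb* was higher by 0.59 ± 0.032, *Fgfr1* by 0.54 ± 0.023, *Pdgfra* by 0.43 ± 0.042 and *Ddr1* by 0.28 ± 0.026. All 9 passed (largest adjusted *P* = 0.00024, for *Igf1r*, which did not pass with library totals, at -0.03), where 32.6% of genes were lower and 34.0% higher. With the compounds as units, only *Met* among the 9 had the mean of every PROTAC below that of every kinase inhibitor (exact permutation test on log2(CPM + 4), two-sided, *P* = 0.0286, the smallest of 35 splits). Over all genes tested, 12.6% had every PROTAC mean below every kinase inhibitor mean and 13.6% had it above. *Axl* gave *P* = 0.0857 and the other receptors 0.143 to 0.571 in the same exact test. No receptor separated all PROTAC libraries from all kinase inhibitor libraries, as 5.82% of genes did below and 4.52% above. The sign of the fold change against DMSO differed among the PROTACs for *Erbb2*, *Pdgfra*, *Fgfr1*, *Igf1r* and *Ddr2*.

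At matched dose and time, 6 pairs of compounds were compared, with *P* values adjusted over all genes in each. PROTAC FAK degrader 1 gave less *Met* than each kinase inhibitor at 1 μM, by 1.31 against defactinib, 1.26 against GSK2256098, 1.14 against IN10018 and 1.11 against VS-4718 on the log2 scale (SE 0.035 each, edgeR, largest adjusted *P* = 9.61e-27). *Axl*, *Erbb2*, *Pdgfra* and *Fgfr1* were also lower in all 4 pairs. Of the 9 receptors 8 were lower and 1, *Ddr2*, higher against defactinib (34.0% and 34.9% of genes) and against VS-4718 (34.3% and 34.6%). Against GSK2256098, 7 were lower and 1 higher (33.6% and 34.1%), and against IN10018, 5 were lower and 2, *Ddr2* and *Pdgfrb*, higher (31.1% and 32.4%). The higher *Ddr2* against defactinib, 0.09 ± 0.03 (adjusted *P* = 0.0098), did not pass without defactinib replicate 2 (0.06, adjusted *P* = 0.095). The lower *Pdgfrb* against defactinib, -0.15 ± 0.061 (adjusted *P* = 0.025), did not pass with library totals (-0.09) or without defactinib replicate 2 or 3 or PROTAC FAK degrader 1 replicate 1 or 2 (-0.13 to -0.14, adjusted *P* from 0.066 to 0.090). Nor did the lower *Igf1r* against GSK2256098, -0.13 ± 0.05 (adjusted *P* = 0.020), with library totals (-0.06) or without GSK2256098 replicate 2 or 3 or PROTAC FAK degrader 1 replicate 1 or 2 (-0.10 to -0.12, adjusted *P* from 0.053 to 0.103). *Ddr1* and *Igf1r* did not differ past the threshold from IN10018, with 95% intervals of -0.10 to 0.11 and -0.13 to 0.08.

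Between the kinase inhibitors VS-4718 and defactinib, *Met* was lower with VS-4718 by 0.20 ± 0.033, *Axl* by 0.22 ± 0.028 and *Ddr2* by 0.31 ± 0.03, while *Ddr1* was higher by 0.35 ± 0.046 (edgeR, largest adjusted *P* = 6.56e-06; 16.0% of genes lower and 18.0% higher). *Erbb2*, *Igf1r*, *Fgfr1*, *Pdgfra* and *Pdgfrb* did not pass. The interval for *Fgfr1* was -0.07 to 0.10 and that for *Pdgfra*, the widest of the 5, -0.23 to 0.09. Between the PROTACs at 0.1 μM, GSK215 left *Met* higher than BSJ-04-0146 did by 0.28 ± 0.035 (adjusted *P* = 6.91e-08). *Pdgfrb* was higher by 0.55 ± 0.056, *Igf1r* by 0.39 ± 0.051, *Ddr2* by 0.31 ± 0.031 and *Axl* by 0.26 ± 0.028, and *Erbb2* and *Ddr1* by 0.18 ± 0.048 and 0.17 ± 0.046, the last not passing without BSJ-04-0146 replicate 1 (0.13, adjusted *P* = 0.069). In that pair 7 receptors were higher and 0 lower (9.88% and 12.6% of genes; 0 lower also at an unadjusted *P* under 0.05 and with DESeq2). *Pdgfra* and *Fgfr1* did not pass, with intervals of -0.12 to 0.17 and -0.01 to 0.15.

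**Figure D4:**
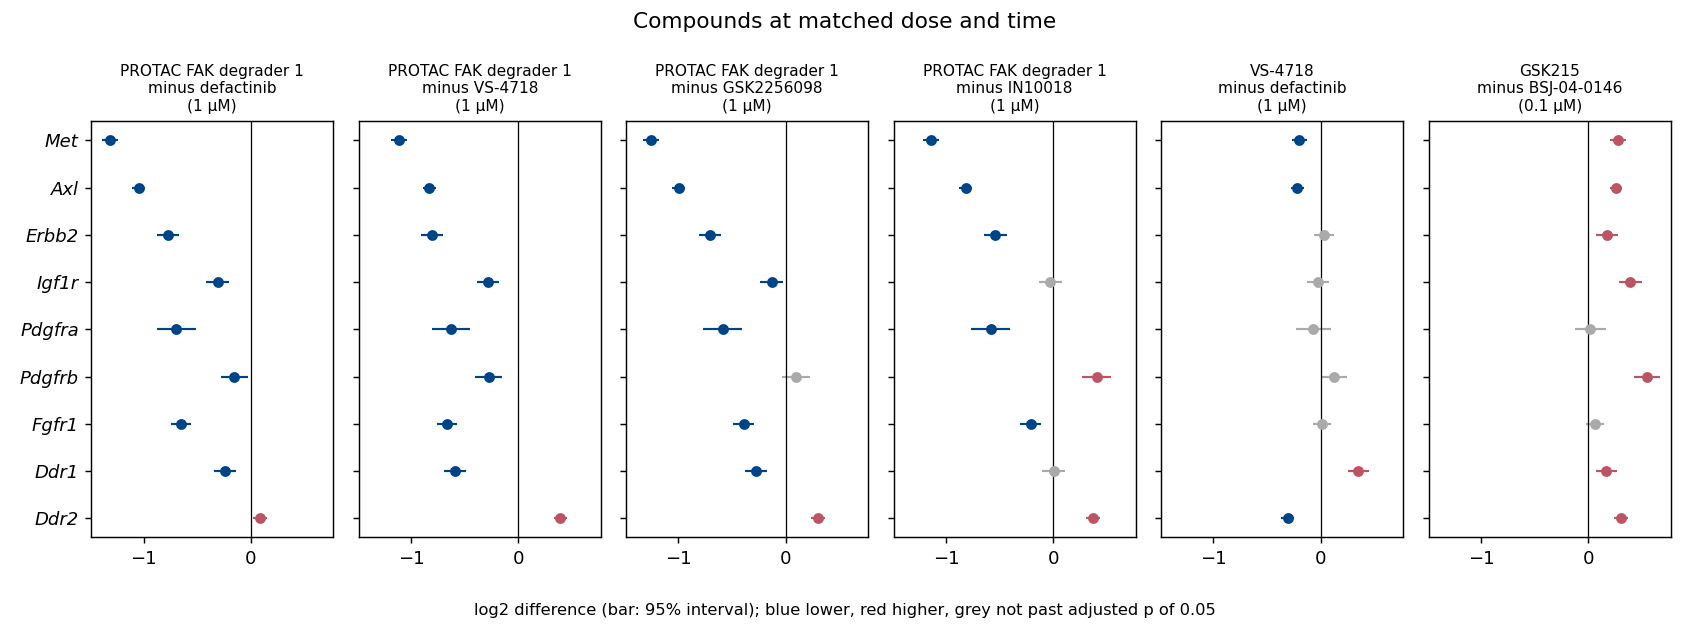
Log2 difference of each receptor gene between compounds at the same dose and time, 1 panel per pair, with 95% intervals. Blue points were lower and red points higher in the first-named compound at an adjusted *P* under 0.05, and grey points did not pass. *Met* is lowest of the 9 genes in the 4 pairs with PROTAC FAK degrader 1 and higher with GSK215 than with BSJ-04-0146.

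The likeness of other genes to *Met* was taken as the root mean square difference of the 8 centred group means of log2(CPM + 4), over 10282 genes with at least 5 CPM on average. The nearest were *Hells* (0.048), a chromatin remodeling helicase, *Fancb* (0.064), a subunit of the Fanconi anemia core complex, *Adamts1* (0.067), a secreted metalloprotease, *Podxl* (0.068), a sialomucin, and *Srsf2* (0.072), a splicing factor. *Axl* ranked 52nd at 0.110 and *Erbb2* 1054th at 0.257. The other receptors ranked between 3154 (*Igf1r*, 0.357) and 9409 (*Pdgfrb*, 0.641), and a gene with no change at all would lie at 0.406. The points share libraries, so this is a description with no test.

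Among 35 further genes of receptor tyrosine kinases and their relatives, 15 were tested, and the other 20 had at most 10 counts in any library. With PROTAC FAK degrader 1, 7 of the 15 were lower and 4 higher, with a median log2 fold change of -0.36 beside 0.0045 over all genes. Under library totals 6 were lower and 4 higher, with a median of -0.28 beside 0.086. Of all genes tested, 32.7% were lower and 34.1% higher with this compound, or 27.7% and 39.1% with library totals. The TAM receptors *Mertk* and *Tyro3*, relatives of *Axl*, fell by 0.97 ± 0.07 and 0.80 ± 0.043 (edgeR, adjusted *P* = 2.27e-15 and 1.9e-19). *Ror1* fell by 0.91 ± 0.117, while the decoy receptor *Fgfrl1* rose by 1.02 ± 0.081. *Erbb3*, the neuregulin-binding partner of *Erbb2*, read 3.05 to 3.89 CPM with DMSO, 18.9 to 21.7 CPM with GSK215 and 17.8 to 18.3 CPM with BSJ-04-0146. It rose by 2.55 ± 0.101 and 2.37 ± 0.104 (adjusted *P* = 5.07e-23 and 1.01e-21). With GSK215, 2 of the 15 were lower and 7 higher (1 and 8 with library totals), and with BSJ-04-0146, 4 and 8 (2 and 8). Over all genes, 27.2% were lower and 27.4% higher with GSK215 (17.8% and 38.5% with library totals), and 26.9% and 27.7% with BSJ-04-0146 (18.5% and 37.4%). The insulin receptor *Insr* rose with both, by 0.55 and 0.38.

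Of 25 ligand genes 13 were tested. *Hgf* and *Gas6*, the ligands of *Met* and *Axl*, had at most 3 and 6 counts in any library and were not tested. With PROTAC FAK degrader 1, 6 of the 13 were lower and 3 higher (5 and 5 with library totals), where 32.7% of all genes were lower and 34.1% higher (27.7% and 39.1%). *Hbegf*, which binds EGFR and ERBB4, fell by 1.23 ± 0.036 with PROTAC FAK degrader 1, 1.09 ± 0.036 with BSJ-04-0146 and 0.81 ± 0.035 with GSK215 (edgeR, largest adjusted *P* = 7.08e-22). *Pdgfb* fell by 0.90 ± 0.048, 0.58 ± 0.047 and 0.46 ± 0.047 with the same compounds. *Nrg1*, the neuregulin that acts through *Erbb3*, fell by 1.04 ± 0.082 with BSJ-04-0146 and 0.95 ± 0.081 with GSK215, and by 0.20 ± 0.072 with PROTAC FAK degrader 1 (adjusted *P* = 0.014). The last was -0.12 with library totals and then did not pass (adjusted *P* = 0.146). *Nrg1* fell and *Erbb3* rose with GSK215 and BSJ-04-0146, and *Pdgfb* fell and *Pdgfrb* rose with all 3 PROTACs.

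Downstream of the receptors, all 16 adaptor and effector genes were tested, and with PROTAC FAK degrader 1, 3 were lower and 9 higher (3 and 11 with library totals). Over all genes 32.7% were lower and 34.1% higher (27.7% and 39.1% with library totals), the background of each count of these groups. The insulin receptor substrate *Irs1* was the lowest, at -1.06 ± 0.056 (edgeR, adjusted *P* = 1.55e-19). Of 13 brakes on receptor signaling tested, 6 were lower and 6 higher. *Errfi1*, an inhibitor of ERBB receptors, fell by 1.09 ± 0.039. Among the genes that activate pro-HGF or restrain its activation, the urokinase gene *Plau* fell by 1.07 ± 0.091 and *Plat* by 0.59, while *Hgfac*, *Spint1* and *Spint2* had at most 8 counts in any library. Of 7 genes for shedding of receptors and its inhibitors, 4 were lower and 2 higher (3 and 3 with library totals), *Timp1* falling by 1.17 ± 0.053. VS-4718 gave 1 lower and 10 higher of the 16 adaptor and effector genes (18.9% and 20.4% of all genes). With library totals these were 0 and 10 (14.9% and 25.0%). GSK215 gave 6 lower and 4 higher (27.2% and 27.4%), or 1 and 7 with library totals (17.8% and 38.5%). BSJ-04-0146 gave 4 and 5 (26.9% and 27.7%), or 0 and 6 with library totals (18.5% and 37.4%).

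The marker genes of the cell types moved with some of these groups. The summed level of the 10 Schwann markers, *Erbb3* among them, was 74.1 to 78.6 CPM with DMSO, 308 to 322 CPM with GSK215, 282 to 308 CPM with BSJ-04-0146 and 82.4 to 88.6 CPM with PROTAC FAK degrader 1. It was 149.9 to 166 CPM with VS-4718, 104 to 113 CPM with defactinib, 103 to 106 CPM with GSK2256098 and 81.8 to 84.4 CPM with IN10018. With PROTAC FAK degrader 1 the members of that sum went opposite ways (edgeR), 3 of the 10 lower and 4 higher, beside 32.7% and 34.1% of all genes. The numbers were the same with library totals (27.7% and 39.1% of genes). The Schwann cell transcription factor gene *Sox10* fell by 0.73 ± 0.086 (adjusted *P* = 1.18e-09), from 19.7 to 20.3 CPM with DMSO to 11.3 to 12.8 CPM. *Ngfr*, the p75 neurotrophin receptor, fell by 1.09 ± 0.1 and *L1cam* by 0.82 ± 0.193, while the myelin gene *Mbp* rose by 0.97 ± 0.061, *Erbb3* by 0.63 ± 0.126, *Foxd3* by 0.50 ± 0.073 and *Egr2*, at under 1 CPM, by 1.64 ± 0.581. With GSK215 and BSJ-04-0146, 9 of the 10 were higher and *Egr2* did not pass, beside 27.4% and 27.7% of all genes higher. Under library totals 10 and 9 were higher (38.5% and 37.4% of genes). Defactinib, VS-4718 and GSK2256098 each gave 7 of the 10 higher and 0 lower. Over all genes 11.4%, 20.4% and 6.36% were then higher and 11.0%, 18.9% and 6.09% lower. IN10018 gave 1 lower and 1 higher (6.85% and 6.44% of genes). The sums were highest in the groups where *Pdgfra*, *Pdgfrb*, *Fgfr1* and *Ddr1* were highest. The sum of the 6 fibroblast markers, *Pdgfra* among them, was 1732 to 1776 CPM with DMSO and 994 to 1008 CPM with PROTAC FAK degrader 1, where *Met* and *Axl* were lowest. It was 1334 to 1410.2 CPM with BSJ-04-0146 and 1516 to 1824 CPM with the other 5 compounds. *Col1a2* and *Col1a1* made up most of this sum, at 1350 and 392 CPM on average with DMSO. Of the 3 fibroblast markers tested, 3 were lower with PROTAC FAK degrader 1. GSK215 gave 1 lower and 2 higher, and BSJ-04-0146 2 lower and 1 higher (1 and 1 with library totals). Over all genes 32.7%, 27.2% and 26.9% were lower with these 3 compounds and 34.1%, 27.4% and 27.7% higher. The sum of the 6 macrophage markers, most of it *Cd68*, was 3.66 to 4.00 CPM with DMSO, 10.9 to 11.7 CPM with PROTAC FAK degrader 1, 6.20 to 7.81 CPM with GSK215, 7.66 to 9.10 CPM with BSJ-04-0146 and 3.65 to 6.06 CPM with the kinase inhibitors. The sum of the 4 epithelial markers was 4.34 to 4.89 CPM with DMSO, 8.01 to 9.28 CPM with GSK215, 8.55 to 10.1 CPM with BSJ-04-0146 and 3.66 to 5.87 CPM with the other 5 compounds, with *Epcam* at 1 count or fewer and *Cdh1* at 3 or fewer in any library. The sums of the endothelial and neuron markers were at most 0.570 and 0.218 CPM in any library. The part of these marker changes in the receptor levels was not tested. In bulk RNA, fewer cells of a kind and less RNA per cell cannot be told apart.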

How the data were processed

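RNA from 24 libraries of MS03 cells was sequenced by a commercial service after poly(A) selection. The authors deposited raw counts of reads for each Ensembl gene, not normalized. The submitters' processing notes name Trimmomatic 0.36, STAR 2.5.2b, featureCounts of Subread 1.5.2 and GRCm38, while annotation and strand setting are not given in the sources used here. Libraries were matched to groups by the library number in the labels.

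The quasi-likelihood test of edgeR 4.0.16 in R 4.3.3 was applied to the counts after TMM scaling and filterByExpr, in 1 fit of all groups that left 16 degrees of freedom. Two-sided *P* values were corrected over the 16070 genes tested (Benjamini-Hochberg), and 0.05 was the limit for a call. The standard error of a log2 fold change was obtained from its F statistic. The code was tested on simulated counts of GSK215 against DMSO, with 95 genes changed 1.5-fold and 96 changed 2-fold. It called 56.8% and 82.3% of these and 0.065% of the unchanged genes. Far more genes were called in the real comparison, so these rates do not carry over to it. CPM used TMM library sizes, and exon lengths and overlaps came from GENCODE M21. Replicates of a group differed by more than counting noise (1.80 to 9.44 chi-square units for each degree of freedom), so none was taken as a copy. PROTAC FAK degrader 1 was set against each kinase inhibitor at 1 μM, VS-4718 against defactinib, and GSK215 against BSJ-04-0146 at 0.1 μM.

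The members, gene lists and rules were chosen with earlier results of these data known. All 10 receptors were named. From the lists, called genes averaging at least 5 CPM could be named, those with the largest change first, and the 5 genes nearest to *Met*. Alternatives were DESeq2 1.42.0, library totals in place of TMM, limma-trend (limma 3.58.1) on log2(CPM + 4), no filter, a replicate block, leaving out each replicate, and only the libraries compared. A further marker gene is not reported here.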

Additional observations from a re-analysis of the deposited data

How the results depend on the processing

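Of 126 fold changes (9 receptors in 14 comparisons), 103 kept their direction and side of the threshold under every alternative run. DESeq2 and limma-trend on log2(CPM + 4) changed none of the 126 calls. Library totals in place of TMM turned *Axl* with GSK215 to 0.0317 and *Igf1r* for PROTAC FAK degrader 1 against IN10018 to 0.0477, neither past the threshold. They also gave 0 receptors lower with GSK2256098 and 2 higher for PROTAC FAK degrader 1 against GSK2256098. With only the libraries compared, *Ddr1* for PROTAC FAK degrader 1 against IN10018 was -0.00235. Leaving out each replicate in turn gave 0 to 1 receptors lower with GSK2256098 and 0 to 1 higher for PROTAC FAK degrader 1 against defactinib. It turned the sign of values that did not pass in either case. These were *Pdgfrb* with IN10018 (-0.068 to 0.0696), *Ddr1* for PROTAC FAK degrader 1 against IN10018 (-0.0281 to 0.0435), *Igf1r* (-0.0728 to 0.0324), *Fgfr1* (-0.0121 to 0.0307) and *Erbb2* (-0.0171 to 0.0918) for VS-4718 against defactinib, and *Pdgfra* for GSK215 against BSJ-04-0146 (-0.0178 to 0.0817). The cause of these changes was not tested. With the replicate number as a block, *Met* with PROTAC FAK degrader 1 was -1.36 and no call changed. The numbers do not pair the libraries, as same-numbered libraries of different groups had correlations from -0.304 to 0.276 and 5 of 24 correlated best with their own number. *Egfr*, with 2 to 7 counts per library, and the 20 further receptors that were not tested had too few counts to compare. Whether depth or a lack of expression sets this was not tested.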
